A study of Mus musculus with 8 samples.

Results

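The effect of lithium chloride (LiCl) on the difference between Lgr4 null and wild-type intestinal crypts after 1 day of culture was examined as a ratio of ratios. The 2 arrays titled as LiCl treatment on day 1 were set against the 2 arrays titled day 1 without LiCl, 4 of the 8 arrays of the study, over 15123 genes. Every array carried RNA of crypt cells from Lgr4 null mice, which carry the gene-trap allele Lgr4/Gpr48 Gt, in one dye and RNA of wild-type crypt cells in the other, all on the CD1 background. All 4 arrays share 1 day of culture, in Matrigel and crypt medium with fetal bovine serum per the growth protocol. The sources used here give neither the dose of LiCl nor the age of the mice. The deposited value is a log ratio, likely null over wild type and taken as log2, and the measure used throughout is the mean of the 2 LiCl arrays minus the mean of the 2 day 1 arrays. With LiCl in both channels, and ratios in that direction, a positive difference says that the null to wild-type ratio was higher with LiCl. It does not say which genotype moved.

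Lgr4 binds R-spondins, which are secreted and make crypt cells respond more strongly to Wnt ligands. Wnt signalling keeps beta-catenin from being degraded, and beta-catenin with TCF factors drives genes that maintain the crypt base stem cells and their neighbours, the antimicrobial Paneth cells. Lithium inhibits GSK3, a kinase of the complex that marks beta-catenin for degradation, and so acts below the receptor. The series text asks what LiCl did to Lgr4 knockout crypts on day 1 against control cells.

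The labels do not agree on the wild-type side of the LiCl arrays. The sample characteristics give LiCl for both channels of both arrays. The source name of the wild-type channel mentions LiCl on replicate 2 and not on replicate 1, and the series text speaks only of control cells. If a wild-type channel had no LiCl, its ratio would mix treatment with genotype, and the values cannot tell these apart. The direction of the LiCl ratios is not settled either. Over 12 pairs with the 6 arrays without LiCl their correlations across probes ran from -0.493 to -0.0855, and with the day 1 arrays they lay between -0.493 and -0.318. The LiCl arrays correlated with each other at 0.403 and the day 1 arrays at 0.737. The main results are therefore given as deposited and again with the sign of both LiCl arrays turned. A difference given alone is as deposited. By arithmetic a difference keeps its sign under turning where the day 1 mean lies further from 0 than the LiCl mean, which held for 10739 of the 15123 genes (71.0%).

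The LiCl arrays had the narrower ratios, with a scaled median absolute deviation over probes of 0.142 and 0.110 against 0.242 and 0.230 on the day 1 arrays. That spread bears on which of the means lies further from 0. With all arrays scaled to equal spread the sign was kept for 7814 genes (51.7%). No probe used carries the name of Lgr4, so the gene that would check the labels was not analysed here. A log ratio holds no level, so whether crypt cell markers were present could not be checked. Whether the 2 arrays of each group hold separate cultures or animals is not stated in the labels, so p-values measure the spread between arrays, which may be technical.

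As deposited, 2868 genes (19.0%) had a different ratio with LiCl at an adjusted p under 0.05 (limma, Benjamini-Hochberg over 15123 genes). The ratio was higher with LiCl for 1567 genes (10.4%) and lower for 1301 (8.6%). At least 2-fold were 943 of the higher and 664 of the lower genes. Both LiCl arrays lay above both day 1 arrays for 4154 genes (27.5%) and below both for 4296 (28.4%). Of the 2868 genes, 2689 had a day 1 mean and a LiCl mean on opposite sides of 0, and 2531 keep their sign when the LiCl arrays are turned. With the LiCl arrays turned, 1054 genes (6.97%) passed, 586 higher (3.87%) and 468 lower (3.09%). In all, 817 genes (5.4%) passed both ways with the same direction, 492 higher (3.25%) and 325 lower (2.15%), and 19 (0.126%) passed both ways with opposite directions, 7 of them higher as deposited (0.0463%) and 12 lower (0.0793%). Turned, both LiCl arrays lay above both day 1 arrays for 3871 genes (25.6%) and below both for 3356 (22.2%).

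The LiCl ratio by itself differed from 0 for few genes. It passed for 393 genes (2.6%), 206 above 0 and 187 below, against 3119 (20.6%) for the day 1 ratio. Of those 393, 339 also had a day 1 ratio different from 0, on the opposite side for 322 and on the same side for 17. Among the 817 genes that kept their direction, the LiCl ratio differed from 0 for 116.

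The counts depended on single arrays. Without day 1 replicate 1 and replicate 2 the as-deposited count was 1488 and 1742. Without LiCl replicate 1 and replicate 2 it was 2120 and 2015. The turned count was 133 and 152 without a day 1 array and 61 and 117 without a LiCl array, and the count with the direction kept was 114 and 126, then 50 and 84, in the same order. With arrays scaled to equal spread 2591 genes passed as deposited, 234 turned and 68 both ways with the same direction. Of 75 named genes that passed turned, 24 also did so without each of the 4 arrays in turn, and 38 did not whichever array was left out.

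**Figure D1:**
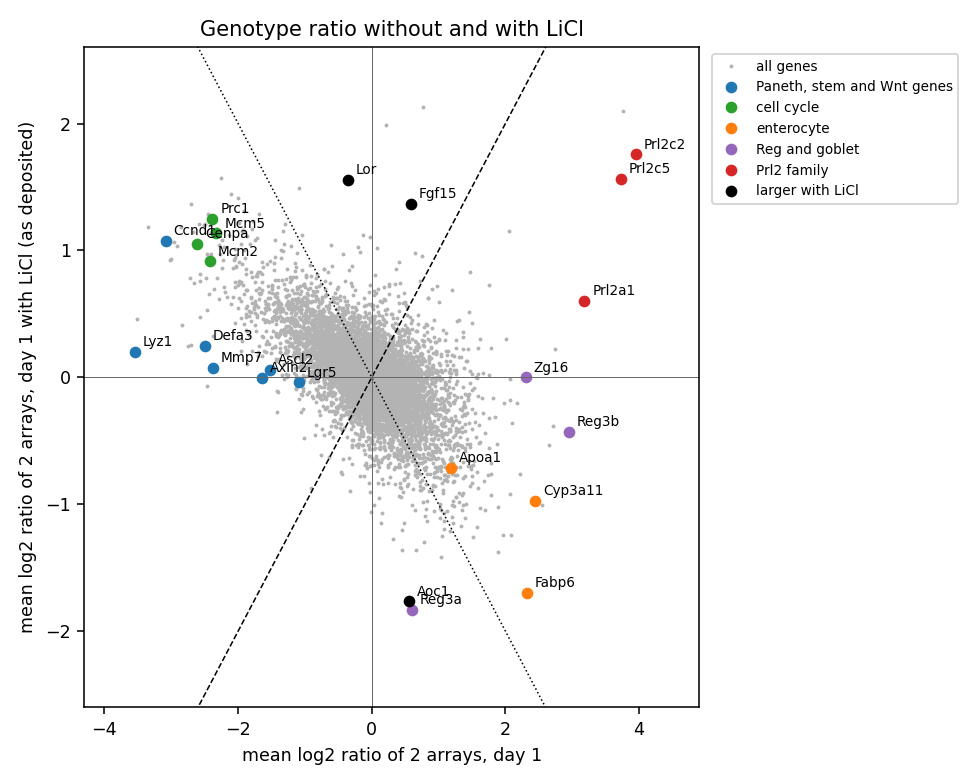
The mean log2 ratio of the 2 day 1 arrays (horizontal) is plotted against that of the 2 LiCl arrays as deposited (vertical) for 15123 genes in grey, with named genes in colour. The dashed and dotted diagonals mark equal distance from 0 on the same and on opposite sides. Genes nearer the horizontal axis than the diagonals, such as Lyz1 and Zg16, keep the sign of their difference when the LiCl arrays are turned, and Reg3a, Lor, Fgf15 and Aoc1 do not.

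Genes of Paneth cells were among the largest changes whose direction did not depend on the sign of the LiCl arrays. Of 15 measured Paneth cell genes 6 had a higher and 3 a lower ratio with LiCl, against 10.4% and 8.6% of all genes, and all 9 passed in the same direction when turned, against 5.4% of all genes. The kept count was 5 (3 higher and 2 lower) without each of the 4 arrays, and also with equal spread. The list's median difference was 0.15 as deposited and 0.04 turned, against -0.01 and 0.01 over all genes. These libraries mix all crypt cells, so fewer cells of a type and less RNA per cell cannot be told apart. The direction of the day 1 ratio was taken partly from these same genes, so their day 1 values do not check it.

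Lyz1, the lysozyme of Paneth cell granules, stood at -3.90 and -3.18 on the day 1 arrays and at 0.19 and 0.21 on the LiCl arrays. Both LiCl values lay close to 0 and far above both day 1 values. The difference was 3.74 ± 0.20 (13.3-fold, adjusted p = 0.000104, limma), and 3.34 ± 0.18 turned (adjusted p = 0.000375). Its 2 probes gave 2.93 and 4.56. Defa3, an alpha-defensin, moved from -2.26 and -2.72 to 0.39 and 0.10, and Defa31 from -2.49 and -2.92 to 0.26 and 0.25. The groups did not overlap for either gene, with differences of 2.74 ± 0.21 and 2.96 ± 0.19. Alpha-defensin genes are near-identical copies that 1 probe may not tell apart.

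Mmp7, the protease that activates defensins and a known Wnt target, had day 1 ratios of -2.25 and -2.52 and LiCl ratios of 0.06 and 0.09. Its difference was 2.45 ± 0.21 as deposited (adjusted p = 0.000447) and 2.31 ± 0.21 turned (adjusted p = 0.00265). These values passed without each of the 4 arrays in turn and with equal spread, both ways, as did those of Lyz1, Defa3 and Defa31. Itln1, an intestinal lectin, differed by 1.16 and Ang4, an antimicrobial ribonuclease, by 1.04. With equal spread 3 higher genes of the list kept a called direction, Lyz1, Defa3 and Mmp7, so Itln1 and Ang4 did not. Lyz2 counts in this list and in that of endothelium and blood. Lyz2, the lysozyme of macrophages, differed by 1.29 on average, but its 4 probes ran from -0.04 to 3.19 and the call was lost whichever of the 4 arrays was left out (highest adjusted p = 0.109). The lower genes were Ttr, a thyroid hormone carrier, at -2.38, Nupr1, a stress-induced chromatin protein, at -1.56, and the guanylyl cyclase ligand Guca2b at -0.94.

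The promoter window of Mmp7 is shown because it carries the letters of a TCF site in a gene whose difference passed with either sign. The search used CTTTGAT on both strands of RefSeq windows from 250 bases before to 50 after the gene start (GRCm38.p6). These letters occur in 393 of the 12213 measured genes with a window (3.22%), and in 3 of 11 Paneth cell genes with one, Mmp7, Defa20 and Defa21. They occur in 2 of 14 Wnt feedback and target genes with a window, Mmp7 and Sp5, and not in Axin2 or Rnf43. Defa20 (0.64) and Defa21 (0.14) did not pass. The match is in capitals, as the reverse complement, at chr9:7691840-7692139 on the plus strand. Motifs were chosen after their shares had been looked at, and a match describes letters only.
Mmp7: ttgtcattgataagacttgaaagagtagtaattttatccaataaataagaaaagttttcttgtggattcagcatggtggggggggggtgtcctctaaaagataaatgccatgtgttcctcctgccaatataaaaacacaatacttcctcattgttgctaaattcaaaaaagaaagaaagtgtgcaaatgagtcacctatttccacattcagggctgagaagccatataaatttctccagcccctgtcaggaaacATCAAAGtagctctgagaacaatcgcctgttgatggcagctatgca

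Crypt base stem cell genes had higher ratios with LiCl for 9 of 18 measured genes and lower ratios for 2, against 10.4% and 8.6% of all genes. Of them 7 and 1 were kept when turned, against 3.25% and 2.15% of all genes. The list's median was -0.57 on day 1 and 0.06 with LiCl, a median difference of 0.91 as deposited and 0.25 turned. Without each array in turn the kept count was 2 to 4, and 6 with equal spread. Lgr5, the stem cell marker and itself an R-spondin receptor, was at -1.19 and -0.995 on day 1 and at -0.07 and -0.01 with LiCl. The groups lay apart, and the LiCl values sat at 0. Its difference was 1.05 ± 0.16 (2.07-fold, adjusted p = 0.00389) and 1.13 turned (adjusted p = 0.00682). The as-deposited call was lost without day 1 replicate 1 (adjusted p = 0.0511) and the turned call whichever of the 4 arrays was left out (highest adjusted p = 0.0963).

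Ascl2, a transcription factor that maintains these stem cells, moved from -1.71 and -1.32 to -0.10 and 0.22, a difference of 1.58 ± 0.23. Turned, Ascl2 also lost its call whichever array was left out (highest adjusted p = 0.0743). Smoc2, a matricellular protein of crypt base cells, moved from -2.22 and -1.50 to 0.06 and 0.15, and differed by 1.97 as deposited and 1.76 turned. Smoc2 and Slc12a2, a chloride cotransporter (3.10 and 1.79), passed without each array both ways. Cdca7, a chromatin protein of cycling cells, differed by 3.26 and 2.43, with the turned call lost without either LiCl array (highest adjusted p = 0.0569). Sectm1b was lower, at -1.78 as deposited and -0.07 turned.

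Among Wnt feedback and target genes, 8 of 21 had a higher ratio, against 10.4% of all genes, and the other 13 did not pass. When turned, 5 of the 8 kept their direction, against 3.25% of all genes: Axin2, Ccnd1, Ccnd2, Mmp7 and Rnf43. The kept count was 3 without LiCl replicate 1, 4 without each of the other arrays and 2 with equal spread. The list's median difference was 0.21 as deposited and 0.24 turned. Axin2, a scaffold of the destruction complex that Wnt induces as feedback, had day 1 ratios of -1.82 and -1.47 and LiCl ratios of -0.19 and 0.18. Its LiCl arrays straddled 0, so the difference was nearly the same as deposited (1.64 ± 0.20, adjusted p = 0.00155) and turned (1.65 ± 0.16, adjusted p = 0.00317). The turned call was lost without LiCl replicate 1 (adjusted p = 0.0525).

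Ccnd1, cyclin D1 of the entry into the cell cycle, behaved otherwise, with -3.17 and -3.00 on day 1 and 1.08 and 1.07 with LiCl. As deposited its ratio crossed 0 and the difference was 4.16 ± 0.13 (17.9-fold, adjusted p = 9.42e-05), and turned it was 2.01 ± 0.13 (adjusted p = 0.000708). With equal spread the turned difference was 0.80 (adjusted p = 0.0693), so Ccnd1 stayed higher but was not called there, as was Ccnd2 (0.84, adjusted p = 0.103). Rnf43, a ubiquitin ligase that removes Wnt receptors, differed by 1.57 and 0.75. Myc, the growth-promoting factor, passed as deposited (0.91) and not turned (0.53). Sox9, a Wnt-dependent factor of Paneth and stem cells, did not pass at 0.98, and its replicates disagreed with 0.70 and -0.68 on the LiCl arrays. Nkd1 (-0.08), Notum (-0.08) and Lef1 (-0.02), further genes of Wnt signalling, did not pass.

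**Figure D2:**
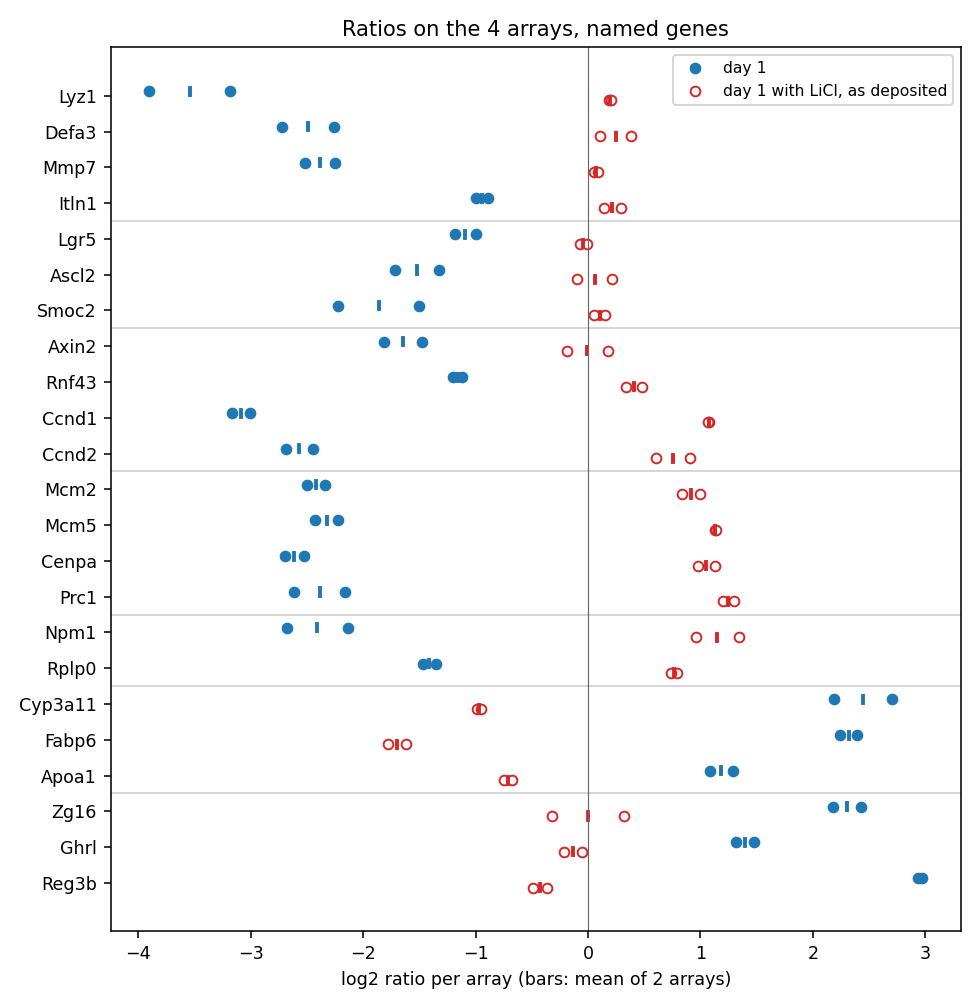
Log2 ratios per array are shown for named genes, filled circles for the 2 day 1 arrays and open circles for the 2 LiCl arrays as deposited, with bars at the means. Lyz1, Mmp7, Lgr5 and Axin2 sat near 0 with LiCl, while Ccnd1, Mcm2, Cenpa and Npm1 lay above 0 and Cyp3a11, Fabp6 and Apoa1 below 0, opposite to their day 1 values.

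Genes of DNA replication and mitosis had the largest median differences of the 25 lists as deposited. Turned, the fetal-like list at -1.01 lay further from 0 than replication, and turned with equal spread further than both. Of 35 replication genes 31 had a higher ratio with LiCl and the other 4 did not pass, with a median difference of 1.95. Of 32 mitosis genes 30 were higher and the other 2 did not pass, with a median of 2.20. Over all genes 10.4% were higher. The medians ran from -1.48 on day 1 to 0.47 with LiCl for replication and from -1.53 to 0.61 for mitosis, so the as-deposited ratio crossed 0. Turned, 21 and 19 of the replication and mitosis genes passed, all higher, against 3.87% higher over all genes, with medians of 0.88 and 1.03. With equal spread the kept count fell to 0 and 1, and without each array in turn it was 0 to 6 for replication and 3 to 10 for mitosis. The as-deposited counts were 28 to 30 and 28 to 29 without each array.

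Mcm2, a subunit of the replicative helicase, had ratios of -2.34 and -2.50 on day 1 and 0.83 and 0.99 with LiCl. Its difference was 3.34 ± 0.16 (10.1-fold, adjusted p = 9.42e-05) and 1.51 ± 0.15 turned (adjusted p = 0.00335), or 0.51 turned with equal spread (adjusted p = 0.321). Mcm5, of the same helicase, moved from -2.43 and -2.22 to 1.13 and 1.14, and Orc6, of the complex that marks origins, from -2.52 and -2.48 to 1.06 and 1.35. The LiCl values of these 3 genes all lay above 0 and their day 1 values below -2, without overlap. Differences were 3.46 for Mcm5 and 3.71 for Orc6 as deposited, and 1.19 and 1.29 turned. Dnmt1, the maintenance DNA methyltransferase, differed by 2.86 and 1.52, and Pcna, the sliding clamp, by 1.31 and 0.66. Turned, Mcm2 lost its call without LiCl replicate 1 (adjusted p = 0.0536), and Mcm5 and Orc6 whichever array was left out (highest adjusted p = 0.0672 and 0.182).

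Cenpa, the histone of centromeres, moved from -2.70 and -2.53 to 1.13 and 0.98. The difference was 3.67 ± 0.14 as deposited (adjusted p = 9.42e-05) and 1.56 ± 0.16 turned (adjusted p = 0.00317). Prc1, which bundles microtubules of the midzone, moved from -2.61 and -2.16 to 1.20 and 1.30, with differences of 3.63 and 1.14. With equal spread the turned difference of Prc1 was -0.03. The mitotic kinesin Kif22 differed by 3.48 and 1.15, the topoisomerase Top2a by 3.38 and 1.76, and the survival protein Birc5 by 3.06 and 1.67. Ube2c, an enzyme of the anaphase-promoting complex, had uneven replicates, 2.35 and 0.79 with LiCl, and passed as deposited (3.83 ± 0.68) and not turned (0.69). Kif20a (0.33) and Racgap1 (0.32) did not pass either way. Turned, Cenpa passed without each array in turn (highest adjusted p = 0.0492), while Prc1 and Kif22 lost their calls whichever array was left out (highest adjusted p = 0.136 and 0.0687). H2ac15, a replication-dependent histone H2A gene, had the highest difference of all genes as deposited, moving from -3.27 and -3.43 to 1.26 and 1.11, with 4.53 as deposited and 2.17 turned. H2ac15 turned with equal spread was at 0.86 and not called (adjusted p = 0.136).

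Promoter windows of Mcm5 and Cenpa are shown because the lists they stand for moved together. TTTNNCGC, letters of an E2F site, on either strand, occurs in 863 of 12213 windows (7.07%) and in 11 of 31 replication genes with a window (35.5%). TTTGAA, the core of the element called CHR in mitotic promoters, occurs in 1860 windows (15.2%) and in 20 of 26 mitosis genes (76.9%). CCAAT occurs in 4758 windows (39.0%), in 20 of 26 mitosis genes (76.9%) and in 19 of 31 replication genes (61.3%). In Mcm5, chr8:75109259-75109558 on the plus strand, the capitals hold 2 overlapping E2F matches on opposite strands. In Cenpa, chr5:30666636-30666935 on the plus strand, they hold 1 CHR match and 2 CCAAT matches read on the other strand. CCAAT matches in the Mcm5 window are not marked. Both windows come from RefSeq GRCm38.p6, and these matches were not tested against the differences.
Mcm5: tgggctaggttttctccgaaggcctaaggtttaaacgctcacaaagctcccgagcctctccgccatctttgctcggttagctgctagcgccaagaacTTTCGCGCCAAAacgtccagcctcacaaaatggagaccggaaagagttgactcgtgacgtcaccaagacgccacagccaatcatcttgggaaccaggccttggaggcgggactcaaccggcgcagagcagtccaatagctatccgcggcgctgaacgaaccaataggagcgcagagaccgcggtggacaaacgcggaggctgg
Cenpa: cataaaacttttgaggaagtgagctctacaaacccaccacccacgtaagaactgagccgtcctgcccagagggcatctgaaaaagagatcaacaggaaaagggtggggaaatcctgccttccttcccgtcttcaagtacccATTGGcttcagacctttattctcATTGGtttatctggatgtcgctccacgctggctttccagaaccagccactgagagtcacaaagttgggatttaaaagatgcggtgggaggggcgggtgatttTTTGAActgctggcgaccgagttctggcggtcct

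Genes that make ribosomes followed the same pattern at a smaller size. Over all genes 10.4% were higher and 3.25% kept a called higher direction. Of 38 cytosolic ribosomal protein genes 31 were higher and 7 did not pass, with a median difference of 1.17 as deposited and 0.44 turned, and 9 kept a called direction. Of 27 nucleolar genes of ribosome assembly 23 were higher and 4 did not pass, with medians of 1.66 and 0.49, and 10 kept it. With equal spread 0 genes of either list kept a called direction, and without each array in turn 0 to 2 and 0 to 1 did. Npm1, a nucleolar chaperone, moved from -2.13 and -2.68 to 0.96 and 1.34, a difference of 3.55 ± 0.18 (adjusted p = 9.42e-05) and 1.26 turned. Fbl, the methyltransferase of ribosomal RNA, moved from -1.68 and -1.68 to 1.51 and 1.07, with 2.97 as deposited and 0.39 turned, which did not pass. Rplp0, of the ribosomal stalk, moved from -1.47 and -1.35 to 0.79 and 0.74, with differences of 2.17 and 0.64. Turned with equal spread, Npm1 stood at 0.12, Rplp0 at -0.05 and Rpl13a at -0.19, and these were not called. Turned without each array in turn, Npm1 ran from 0.80 to 1.72 and Rplp0 from 0.52 to 0.77.

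Other genes were among the 10 with the largest higher or the 10 with the largest lower differences both ways. Lower were Nid1 (-2.52 as deposited and -2.96 turned), Cyp1a1 (-3.10 and -2.33) and Clca4a (-2.09 and -2.06). Each of these also passed with equal spread, both ways. The higher genes follow. Prmt1, the main arginine methyltransferase, was at -3.55 and -3.46 on day 1 and at 0.22 and 0.70 with LiCl, a difference of 3.97 as deposited and 3.05 turned. Rgcc, a regulator of the cell cycle, moved from -2.73 and -2.78 to 0.18 and 0.32, with 3.00 and 2.50. Both passed without each array and with equal spread, both ways. Eef2, the elongation factor, gave 2.39 and 2.53, but its 3 probes ran from 0.45 to 3.80. Hopx, a homeodomain protein of slow-cycling crypt cells, gave 3.05 ± 0.54, with day 1 replicates of -1.79 and -3.36, and lost its call without day 1 replicate 2 (adjusted p = 0.0710). Turned, Hopx gave 2.10 (adjusted p = 0.0317), which was lost whichever array was left out (highest adjusted p = 0.256) and with equal spread (adjusted p = 0.176).

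Genes of absorptive enterocytes moved the other way, beside 8.6% of all genes lower as deposited and 3.09% lower turned. Of 21 measured genes 18 had a lower ratio with LiCl and 3 did not pass, with a median difference of -1.63 and medians of 0.85 on day 1 and -0.64 with LiCl. Turned, the list's median difference was -0.24, 5 genes passed and all 5 were lower: Cdhr5, Cyp3a11, Fabp6, Krt20 and Vil1. With equal spread 0 genes kept a called direction and the turned median was 0.14, and without each array in turn 0 to 2 genes kept one. Fabp6, which binds bile acids in ileal cells, was at 2.39 and 2.24 on day 1 and at -1.62 and -1.78 with LiCl. It had the lowest difference of all genes, -4.02 ± 0.17 (16.2-fold, adjusted p = 9.42e-05), and -0.62 turned (adjusted p = 0.0423). The turned value was 0.77 with equal spread, so the direction of Fabp6 depended on the scaling. The turned call was also lost whichever array was left out (highest adjusted p = 0.290).

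Cyp3a11, a drug-metabolising cytochrome, moved from 2.19 and 2.70 to -0.99 and -0.95, with differences of -3.42 and -1.47, the turned call lost without day 1 replicate 2 or LiCl replicate 1 (highest adjusted p = 0.0699). Vil1, the actin bundler of the brush border, moved from 1.54 and 1.10 to -0.23 and -0.27, with differences of -1.57 and -1.07. Apoa1, the main apolipoprotein of high-density lipoprotein, moved from 1.29 and 1.09 to -0.75 and -0.68, with -1.90 as deposited (adjusted p = 0.000365) and -0.48 turned (adjusted p = 0.129). Each of the 3 genes was above 0 on both day 1 arrays and below 0 on both LiCl arrays. Slc2a2 (-0.22) and Slc15a1 (-0.36), a glucose and a peptide transporter, did not pass, nor did Fabp1 (-2.08), whose day 1 arrays read 1.36 and 0.21.

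Genes of hormone-producing enteroendocrine cells also had lower ratios with LiCl. Over all genes 8.6% were lower and 10.4% higher, and 2.15% were lower both ways. Of 27 measured enteroendocrine genes 14 were lower and 1 higher, and the list's median went from 0.67 on day 1 to 0.04 with LiCl. Its median difference was -0.75 as deposited and -0.55 turned, and 9 genes passed lower both ways. Fewer passed without each array in turn, 4 to 8 lower as deposited and 0 to 1 kept. With equal spread 8 passed lower as deposited and 1 was kept. Ghrl, the hormone ghrelin, moved from 1.47 and 1.32 to -0.05 and -0.22, a difference of -1.53 ± 0.16 (adjusted p = 0.000891) and -1.26 turned (adjusted p = 0.00342, lost without day 1 replicate 2 or either LiCl array, highest 0.0536). Sst, somatostatin, moved from 1.09 and 1.08 to -0.01 and -0.15, and Chgb, a granin of hormone granules, from 1.15 and 1.62 to 0.0013 and 0.14. Values on the LiCl arrays lay near 0 for all 3. Chgb lost its call without either day 1 array or LiCl replicate 1 (highest adjusted p = 0.168), and Chga, another granin, at -0.55, lost it whichever array was left out (highest adjusted p = 0.259). Neurog3, the factor that founds this lineage, was the higher gene at 1.22, with the call lost without day 1 replicate 1 or LiCl replicate 2 (highest adjusted p = 0.0877).

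Of 17 goblet cell genes 8 were lower and 1 higher, against 8.6% and 10.4% of all genes. When turned, 5 and 1 of them were kept, against 2.15% and 3.25% of all genes. The median difference was -0.71 as deposited and -0.27 turned. The kept count was 2 and 1 with equal spread, and without each array in turn 1 or 2 lower genes were kept. Zg16, a lectin-like protein of mucus, was at 2.18 and 2.43 on day 1 and at -0.32 and 0.32 with LiCl. Its LiCl arrays straddled 0, and the difference was -2.30 as deposited (adjusted p = 0.000627) and -2.30 turned (adjusted p = 0.000819). The trefoil peptide Tff3 differed by -1.14 and -1.21 and Tff1 by -2.07 and -1.43, with the turned call of Tff1 lost without either LiCl array (highest adjusted p = 0.0536). The higher gene was the chemokine gene Ccl9, at 1.15 and 1.69. Of 12 tuft cell genes 0 passed in limma as deposited (1 at an unadjusted p under 0.05) and 0 turned (0), against 19.0% and 6.97% of all genes. The list's median difference was -0.07 as deposited and -0.04 turned.

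**Figure D3:**
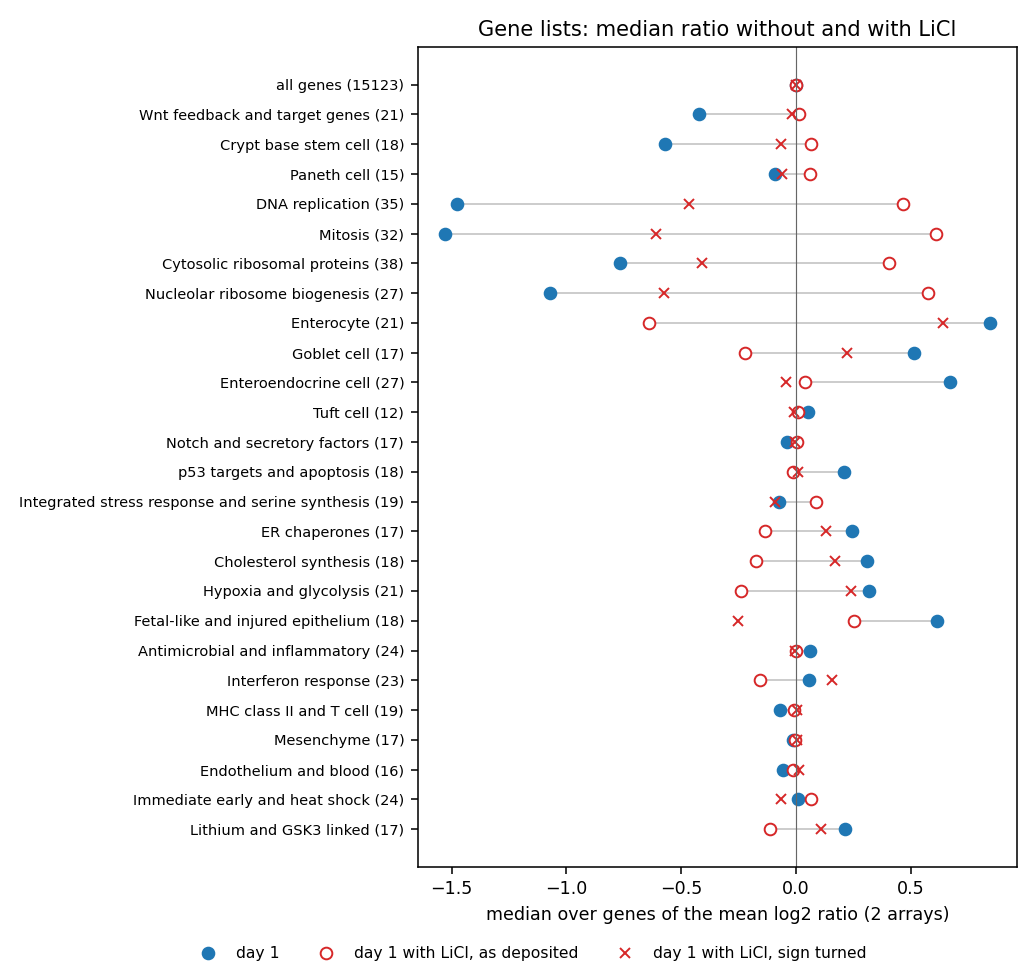
For each gene list (number of measured genes in brackets) the median over genes of the mean log2 ratio is shown on day 1 (filled circle), with LiCl as deposited (open circle) and with LiCl turned (cross). The replication list ran from -1.48 to 0.47 and the enterocyte list from 0.85 to -0.64, while the stem cell list ended at 0.06 and the enteroendocrine list at 0.04. The fetal-like list lay at 0.61 and 0.25, on the same side of 0.

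The 6 arrays without LiCl set a small group of genes apart. Lyz1, Defa3 and Defa31 were below -1 on all 6, and Fabp6, Reg3b and Reg3g above 1 on all 6. Reg3b and Reg3g are lectins that kill gut bacteria. Reg3b was at 2.93 and 2.98 on day 1 and at -0.37 and -0.49 with LiCl, a difference of -3.38 ± 0.21 (adjusted p = 0.000144) and -2.53 ± 0.18 turned (adjusted p = 0.000819). Reg3g was at 1.74 and 1.45, then -0.02 and -0.28, a difference of -1.74 as deposited and -1.45 turned, the latter lost whichever array was left out (highest adjusted p = 0.0672). With LiCl 5 of the 6 genes lay within 1 of 0, whatever the sign, and Fabp6 did not. Ratios on the LiCl arrays were narrow over all probes (scaled median absolute deviation 0.142 and 0.110). Lying within 1 of 0 there does not set these 5 genes apart from others. Of 24 antimicrobial and inflammatory genes 5 were lower as deposited and 19 did not pass, against 8.6% lower over all genes. Of the 5, 3 kept the direction when turned, Reg3b, Reg3g and the oxidase maturation factor Duoxa2, against 2.15% of all genes. The list's median difference was -0.10 as deposited and -0.04 turned. The 5 fell to 3 without day 1 replicate 1, and the 3 kept fell to 1 without each of the 4 arrays.

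Counts of this paragraph stand against 10.4% higher and 8.6% lower over all genes, and the turned median of its cholesterol synthesis list was -0.13. The list of the integrated stress response and serine synthesis was mixed, with 6 higher and 5 lower of 19 genes. Its median difference was 0.12 as deposited and 0.04 turned. The lower count was 2 without day 1 replicate 1 and 3 without either LiCl array. The lower genes were Nupr1 (-1.56), the glutathione-degrading enzyme Chac1 (-1.06), the amino acid transporter genes Slc3a2 (-1.04) and Slc7a11 (-0.91), and the stress factor Atf3 (-0.74). Among the higher genes Psat1 and Phgdh, enzymes of serine synthesis, differed by 1.73 and 1.63, and Mthfd2 and Shmt2, mitochondrial folate enzymes, by 1.70 and 1.36, all kept when turned (1.05, 0.97, 1.20 and 1.00). With equal spread 0 higher genes of this list kept a called direction, and without each array 0 did. Of 18 cholesterol synthesis genes 7 were lower and 11 did not pass (3 or 4 lower without each array), with a median difference of -0.46. Dhcr7, the last enzyme of the pathway, moved from 1.91 and 1.78 to -0.23 and -0.39, a difference of -2.16 and -1.53 turned, and was the kept gene of that list, with the turned call lost without day 1 replicate 2 or either LiCl array (highest adjusted p = 0.0722).

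The counts of the following lists stand against 10.4% higher and 8.6% lower over all genes, and their medians are as deposited. Turned, the median was -0.08 for hypoxia, -0.14 for p53, -0.06 for endoplasmic reticulum and -0.09 for immediate early genes. For Notch it was 0.01 and for interferon genes 0.02. In the hypoxia, p53 and endoplasmic reticulum lists 2 lower genes each passed both ways, against 2.15% of all genes, and 0 with equal spread. Of 21 hypoxia and glycolysis genes 7 were lower and 1 higher, median -0.51, with 3 and 4 lower without day 1 replicate 1 and 2. Ndrg1 (-2.66) and Egln3 (-2.39), both induced by low oxygen, passed as deposited and not turned (-0.59 and -0.30). Of 18 p53 and apoptosis genes 7 were lower and 1 higher (3 or 4 lower without each array), median -0.30, with Gadd45a, of the damage response, at -1.39 and Apaf1, of the apoptosome, at -1.29. Of 17 chaperone genes of the endoplasmic reticulum 5 were lower and 12 did not pass (1 to 5 lower without each array), median -0.42. Of 24 immediate early and heat shock genes 5 were lower and 2 higher (3 or 4 lower without each array), median 0.11, and the lower ones Dusp6 (-1.83), Zfp36 (-1.45) and Klf4 (-1.27) were kept, while 0 genes of the list were kept when any one of the 4 arrays was left out. Of 17 Notch and secretory factor genes 4 were higher and 13 did not pass, median 0.02, with 1 higher without day 1 replicate 1. Notch1, the receptor, moved from -1.58 and -1.28 to 0.09 and 0.16, a difference of 1.55 and 1.30 turned, with the turned call lost without day 1 replicate 1 or either LiCl array (highest adjusted p = 0.0746). Of 23 interferon response genes 3 were lower and 20 did not pass, near the share over all genes, with a median of -0.15. Turned, 0 of them passed in limma (7 at an unadjusted p under 0.05). Of the p53 genes named above, Gadd45a was at -0.05 turned and not called, and Apaf1 at -0.86, or -0.52 with equal spread.

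Genes tied to lithium or GSK3 themselves passed as deposited in 5 cases. Of 17 measured genes 1 was higher and 4 lower, and 0 passed in limma when turned (3 at an unadjusted p under 0.05). The median difference was -0.41 as deposited and -0.15 turned. Over all genes 10.4% were higher and 8.6% lower. Gsk3b, the kinase that lithium inhibits, was at 0.11 and 0.31 on day 1 and at -0.03 and 0.05 with LiCl. The difference of -0.20 ± 0.15 did not pass (adjusted p = 0.500). Ctnnb1, beta-catenin, was at 0.52 and 0.52, then -0.11 and -0.11, a difference of -0.63 (adjusted p = 0.0150) that was lost whichever array was left out (highest adjusted p = 0.121). Slc5a11, an inositol transporter, was at -1.49, Bpnt1, a phosphatase that lithium inhibits, at -1.23, Nfat5, of the osmotic response, at -0.63, and Gyg, the primer of glycogen, at 0.84. Turned, Slc5a11 was at -0.06, Bpnt1 at -0.39 and Gyg at 0.61, and these were not called. Without each array in turn 1 or 2 genes of the list passed.

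**Figure D4:**
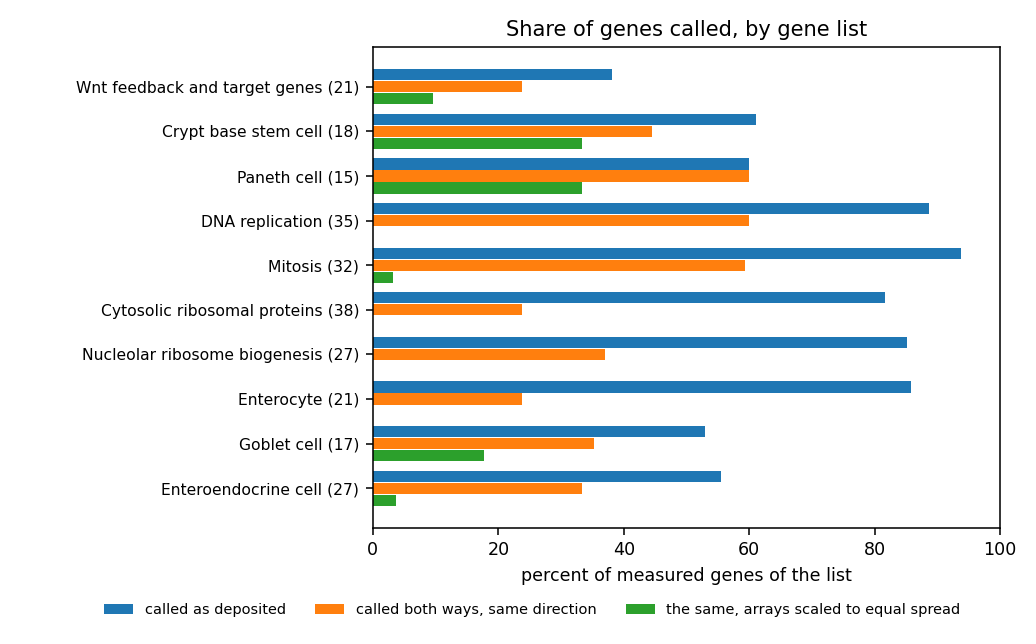
The share of measured genes of 10 lists that passed as deposited (blue), passed both ways in the same direction (orange), and passed both ways in the same direction after scaling the arrays to equal spread (green). Over all genes 2868, 817 and 68 of 15123 passed. The green bar is at 0 for replication, ribosomal, nucleolar and enterocyte genes, and longest for stem cell (6 of 18) and Paneth cell genes (5 of 15).

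Of the 2868 genes that passed as deposited, 179 had a day 1 mean and a LiCl mean on the same side of 0. Members of the Prl2 family, genes related to prolactin and known from the placenta, were among them. Prl2c2, which encodes proliferin, was at 3.76 and 4.15 on day 1 and at 1.45 and 2.06 with LiCl. Both LiCl values were lower than both day 1 values and still well above 0. Its difference was -2.19 ± 0.28 (adjusted p = 0.00181) and, turned, -5.71 ± 0.21 (adjusted p = 3.18e-05). Prl2c5 moved from 3.72 and 3.73 to 1.31 and 1.82, with differences of -2.16 and -5.29, and Prl2a1 from 3.11 and 3.26 to 0.48 and 0.73, with -2.58 and -3.79. Prl2c3, chosen after its values were seen, was at 3.59 and 3.92, then 1.98 and 2.23. With equal spread the as-deposited differences of Prl2c2 (-0.40, adjusted p = 0.746) and Prl2c5 (-0.51, adjusted p = 0.510) were not called. The Prl2c genes are close copies that 1 probe each may not tell apart.

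Genes of fetal-like and injured epithelium showed the same side with LiCl as a list. Their median was 0.61 on day 1 and 0.25 with LiCl, so the median difference was -0.08 as deposited and -1.01 turned, or 0.22 and -0.94 with equal spread. As deposited 4 of 18 genes were lower and 2 higher, against 8.6% and 10.4% of all genes. Turned, 10 were lower and 8 did not pass, against 3.09% lower over all genes. Lower both ways were 4 genes, and 3 with equal spread. Without each array in turn the turned median ran from -1.06 to -0.75. How many of the 10 passed turned under these alternatives was not counted. Plaur, the urokinase receptor, was at 0.63 and 0.67 on day 1 and at 0.75 and 1.20 with LiCl, and did not pass as deposited (0.33, adjusted p = 0.287) but did turned (-1.63, adjusted p = 0.00283). Anxa1, an annexin of injury responses, was at 0.92 and 0.59, then 1.04 and 0.87, with overlapping groups as deposited (0.20) and -1.70 turned. Krt19, a keratin, gave -0.21 and -1.47. Sprr1a, of the cornified envelope, left that side, from 2.62 and 2.67 to -0.51 and -0.55, with -3.18 and -2.11 turned. Cldn4, a tight junction claudin, fell from 1.77 and 2.26 to 0.08 and 0.52 and stayed above 0, with -1.71 and -2.31. Cldn4 was not called as deposited with equal spread (adjusted p = 0.0653). Ccn2, a matricellular target of YAP, was higher at 2.05 and not called turned (0.24).

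The 19 genes called in opposite directions had LiCl ratios further from 0 than their day 1 ratios. Reg3a, another lectin of the Reg3 family, was at 0.61 and 0.61 on day 1 and at -1.97 and -1.70 with LiCl. Its difference was -2.44 ± 0.14 as deposited (adjusted p = 0.000118) and 1.23 ± 0.14 turned (adjusted p = 0.00414), against the kept direction of Reg3b and Reg3g. Aoc1, the diamine oxidase of the gut lining, was at 0.61 and 0.50, then -1.40 and -2.13, with -2.32 and 1.21. Lor, loricrin of the cornified envelope, was at -0.15 and -0.56, then 1.72 and 1.39, with 1.91 and -1.20. These 3 genes lay within 1 of 0 on the day 1 arrays and beyond 1 on the LiCl arrays.

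Fgf15, the ileal hormone that represses bile acid synthesis, was at 0.71 and 0.46, then 1.37 and 1.36. Its difference of 0.79 (adjusted p = 0.0420) was lost whichever of the 4 arrays was left out (highest adjusted p = 0.319), and it was -1.95 turned (adjusted p = 0.00348). Hs3st1, a heparan sulfate enzyme, gave 1.13 and -1.07, Ube2s, of the anaphase-promoting complex, 1.16 and -0.82, and Atxn10 0.95 and -1.09. Leap2, an antimicrobial peptide, gave -1.59 and 0.95, Eci2, of fatty acid oxidation, -1.06 and 1.07, and Retsat, of retinol metabolism, -1.06 and 0.84. As deposited 5 of the 10 named genes passed without each array in turn. Leap2 was not called without day 1 replicate 1 (-1.34, adjusted p = 0.136) and was -0.90 without LiCl replicate 2. Atxn10 was not called without day 1 replicate 2 (0.72) or LiCl replicate 1 (0.61), with a highest adjusted p of 0.143. Eci2 passed only without LiCl replicate 1 and was -0.70 without LiCl replicate 2, and Retsat passed only without LiCl replicate 2 and was -0.69 without LiCl replicate 1. For 7 of these 10 named genes the turned call was lost whichever of the 4 arrays was left out, and 0 of the 10 passed turned without each array in turn. With equal spread the number of genes called in opposite directions was 57.

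**Figure D5:**
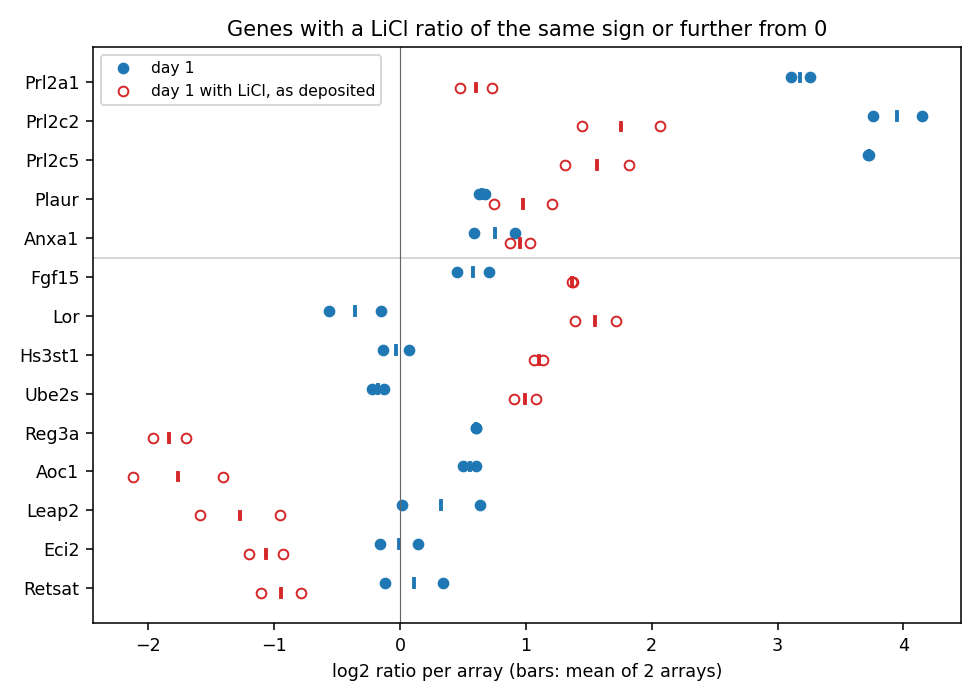
Log2 ratios per array for genes whose LiCl ratio had the same sign as on day 1 (above the line) or lay further from 0 (below it), filled circles for day 1, open circles for LiCl as deposited, bars at the means. Prl2c2 ran from 3.76 and 4.15 to 1.45 and 2.06, and Reg3a from 0.61 on both day 1 arrays to -1.97 and -1.70.

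Markers of other cell types passed in 3 cases, a smaller share than the 19.0% of all genes called as deposited. Of 17 mesenchyme genes Vim alone passed, at -1.02, kept when turned (-1.01) and lost there whichever array was left out (highest adjusted p = 0.111). The median of the list lay at -0.02 and -0.03 on the day 1 arrays and at 0.01 and -0.02 on the LiCl arrays, and collagen genes did not pass (Col1a1 at 0.11, Col3a1 at -0.11). Of 16 genes of endothelium and blood, Lyz2 alone passed. Of 19 genes of MHC class II and T cells H2-Ab1 alone passed, at 0.71, and lost its call without day 1 replicate 1 or either LiCl array (highest adjusted p = 0.352). The part of such cells in the differences above was not tested.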

How the data were processed

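Expression was measured on 2-colour MEEBO arrays of long oligonucleotide probes with total RNA amplified and coupled to Cy5 or Cy3, per the labels' protocols. Each probe of each array has 1 value deposited by the authors, a log ratio of both channels that was taken as log2. Background correction, normalization and log base: not given in the sources used here. No intensities came with them, so signal over background is unknown and the number of arrays limits the precision. Direction, null over wild type, is likely: it rests on the channel order in the labels and on lower Paneth cell genes.

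Of 38467 probes, 22941 had 1 gene symbol in the platform table, 0 several and 15526 none. All 22941 identifiers matched RefSeq's gene table and 0 symbols changed. Leaving out 636 named probes of other probe series left 22305 probes of 15123 genes, averaged per gene (5108 genes had several), and each array was centred on its median. Columns of other series numbered 0.

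limma 3.58.1 (R 4.3.3) fitted all 8 arrays with 4 group means and the null RNA's labelled dye as a covariate, then eBayes (3 residual degrees of freedom, prior 4.1 as deposited and 4.55 turned). The null dye was Cy5 on day 1 replicate 1 and LiCl replicate 2 and Cy3 on the others of these 4. Errors given as ± are limma standard errors (median 0.165, turned 0.154). Adjusted p-values are Benjamini-Hochberg over 15123 genes, with a threshold of 0.05. For the sign-turned results both LiCl arrays were multiplied by -1. Python 3.11.15 (numpy 2.4.6, pandas 2.3.3, matplotlib 3.10.9) made the tables and figures, and the fit was tested on simulated data.

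The comparison and the 25 gene lists (520 measured genes) were chosen with earlier results of these data known. The rule named 111 genes whose LiCl arrays lay wholly above or below the day 1 arrays. It took the 10 higher and 10 lower genes with the largest smaller difference among those called the same way both ways, and 5 and 5 called opposite ways. It added up to 4 called genes per list with the largest difference, and always Lgr5, Ascl2, Axin2, Ccnd1, Lyz1, Mmp7, Mcm2, Apoa1, Chga and Gsk3b. Further list members are named as examples or because they did not pass. Alternatives were centring, scaling to equal spread, the dye term, the arrays fitted, a replicate block, the probe summary, 1-probe genes, robust eBayes, a minimum difference (treat) and leaving out each array.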

Additional observations from a re-analysis of the deposited data

Results flagged for a closer look

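The ratio differed between day 1 with LiCl and day 1 for 2868 genes as deposited, by limma's test of the difference itself, and for 1054 genes with the LiCl arrays turned.

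On LiCl replicate 1, 12 probes lay beyond 3 from 0, up to 6.18 and down to -4.46. All 12 lay between -0.217 and 0.295 on LiCl replicate 2, and 6 of them enter a gene's value. On LiCl replicate 2 there was 1 such probe, on day 1 replicate 1 there were 3 of 32 beyond 3, and on day 1 replicate 2 there were 0 of 25.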

How the results depend on the processing

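As-deposited counts between 2591 and 3557 came from no centring, equal spread, no dye term, only the 4 arrays compared, the replicate block, the median over probes, robust eBayes and a reversed dye label of the LiCl arrays (an alternative added after seeing the data), against 2868. Only 1-probe genes (10015 tested) gave 1751, and treat with a log2 difference of 0.5 gave 1130. Leaving out an array gave 1488 to 2120 as deposited, 61 to 152 turned and 50 to 126 kept. Turned and kept counts were 234 and 68 with equal spread, 470 and 404 with only the 4 arrays, 658 and 510 with 1-probe genes, 113 and 87 with treat, and 656 and 538 with the reversed dye label, against 1054 and 817. The cause was not tested, apart from fewer genes or arrays fitted and the stricter threshold of treat. With equal spread the turned differences of Prc1 (-0.0277), Rpl13a (-0.186), Rplp0 (-0.0461), Rpl35 (-0.0384) and Fabp6 (0.7674) changed sign, and 0 of these then passed. Of 25 lists, 12 or 13 had a median above 0 under each alternative run, and 13 in the main result. Of 111 named genes 78 passed as deposited without each array in turn, and 24 of 75 turned.

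The replicate block gave 3557 genes as deposited, 971 turned and 788 kept, of which 704 were among the 817. The labels tie the 2 replicate numbers to no shared animal, culture or day, and the reported values use no block. The difference of replicate 1 and 2 correlated across genes at 0.271 between day 1 and LiCl and at 0.21 to 0.278 between the other groups, so same-numbered arrays deviated together in all 6 pairs of groups, a hint from the data and not from the design. By labelled dye the same difference correlated at -0.271 between day 1 and LiCl and at -0.21 between day 0 and LiCl. Between day 0 and day 1 it correlated at 0.265. Turning the LiCl arrays, or reversing their dye label, would change the sign of both negative values. What they say of direction or labels was not tested. No signal over background is known, and each group has 2 arrays.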
